A study of Mus musculus with 6 samples.

Results

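Cholesterol leaves a macrophage through transporters in its plasma membrane, and the genes of this route are switched on by the liver X receptors (LXR). Here 9 genes of this route were examined, chosen by symbol from the deposited table of 55335 genes. They were the LXR alpha gene Nr1h3, the oxysterol enzyme gene Ch25h and the LXR target genes Abca1, Abcg1, Apoe, Pltp, Lpcat3, Mylip and Srebf1. All 9 were found once each, and all 9 reached a mean of 1 FPKM (fragments per kilobase of transcript, scaled to the library's mapped fragments), the minimum for testing.

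All samples were macrophages grown from mouse bone marrow of male wildtype C57BL/6 mice of 6 to 8 weeks and used after 6 days of culture. The 3 cultures of the CM group received, for 4 h and mixed 1:1, medium conditioned by pancreatic acinar cells under 200 nM caerulein over 5 h. Caerulein, a cholecystokinin analogue, drives acinar cells to over-secretion and serves in models of acute pancreatitis. The 3 cultures of the CM + 4OI group received the same medium with 200 µM 4-octyl itaconate (4OI), an itaconate ester that enters cells, itaconate being a metabolite that activated macrophages make. Both groups thus carried conditioned medium, and macrophages without it were not analysed here. Per the labels the cultures were independent, and whether they came from separate mice is not given in the sources used here.

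LXR are nuclear receptors that bind DNA as partners of the retinoid X receptors (RXR) and are activated by oxysterols, oxidised forms of cholesterol that build up when a cell holds too much of it. Active LXR raises the cholesterol exporters, apolipoprotein E and a ubiquitin ligase that limits lipoprotein uptake, so that export rises and uptake falls. In macrophages this route is known from foam cells and from the clearance of dead cells, and Ch25h is also known as a gene induced by interferon and by bacterial products.

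With 4OI added, Ch25h fell 10.9-fold, the cholesterol exporters Abca1 and Abcg1 fell to about the same degree, 1.87-fold and 1.91-fold. Nr1h3 fell 1.21-fold, a call that was lost when any 1 library was left out. Mylip rose 2.09-fold and Lpcat3 1.25-fold. Apoe, Pltp and Srebf1 were not called. The LXR target genes therefore did not move in 1 direction. Of the 9 genes 6 were called, where 32.5% of all tested genes were. There were 4 lower, where 13.2% of 10468 tested genes were, and 2 higher, where 19.3% were (limma, Benjamini-Hochberg adjusted p under 0.05). Over all genes 59.3% of the calls were higher, and 44.6% with median-of-ratios scaling. The groups did not overlap in 6 of the 9 genes, where 49.0% of tested genes did not. The median log2 fold change of the 9 genes was -0.02, beside 0.06 over all tested genes. Log2 fold changes were taken on log2(FPKM + 1) values, where low genes change less than their FPKM does, and folds are ratios of mean FPKM. In bulk RNA, fewer cells that express a gene and less RNA per cell cannot be told apart.

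**Figure D1:**
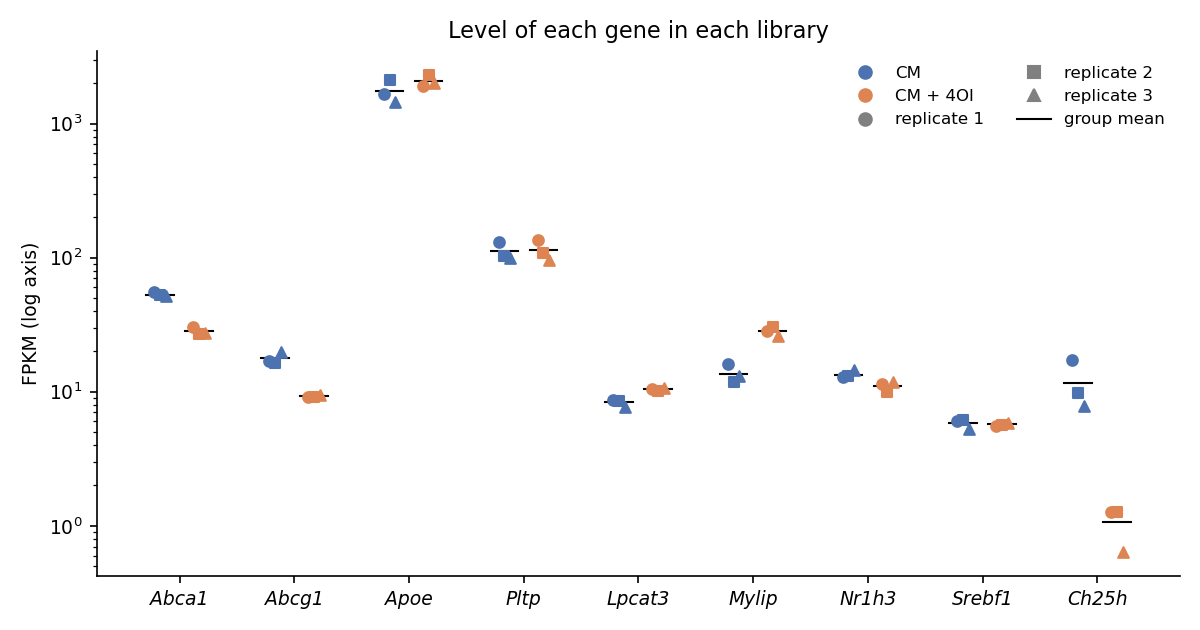
FPKM of each of the 9 genes in each library on a log axis, with CM in blue, CM + 4OI in orange, a marker shape for each replicate number and a line at the group mean. The groups lie apart for Abca1, Abcg1, Lpcat3, Mylip, Nr1h3 and Ch25h, and the Ch25h libraries lie between 7.88 and 17.2 FPKM in CM and between 0.640 and 1.27 FPKM in CM + 4OI.

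Estimated library depths ran from 17.996 to 25.3 M fragments (M, mega), and 10252 to 10658 genes per library reached 1 FPKM. All 8 macrophage marker genes were present, with a summed level of 10704 to 11468 FPKM per library. Most of this was Lyz2, at 8185 to 9018 FPKM, so the sum says little about the others, of which Mrc1 and Fcgr1 were called lower with 4OI. Each of the 5 T cell, 5 B cell and 5 dendritic cell markers stayed under 1 FPKM in all libraries. The 8 fibroblast markers summed to 55.8 FPKM in CM replicate 2 and 32.2 FPKM in CM + 4OI replicate 2, against 6.54 to 9.76 FPKM in the other 4 libraries, so both libraries numbered 2 stood apart. Their part in the results was not tested, and values without them are given where a call of the 9 genes or a count of a list changes. The 8 neutrophil markers summed to 39.6 to 71.997 FPKM, highest in CM replicate 2, and 0 of the 4 tested were called.

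In the macrophages given medium alone the 9 genes spanned a wide range. Apoe led at 1738 ± 330.4 FPKM (errors are SDs throughout, with n = 3 per group), the 16th highest gene of the table by its mean over all libraries. Pltp followed at 111 ± 17.7 FPKM and Abca1 at 52.96 ± 2.03 FPKM, each apart from its neighbours in all libraries. Abcg1 at 17.8 ± 1.76 FPKM lay above Mylip at 13.6 ± 2.19 FPKM in all libraries. The libraries of Mylip, Nr1h3 and Ch25h overlapped, so the order of these 3 is not settled, and Ch25h also overlapped Abcg1 and Lpcat3. Lpcat3 at 8.34 ± 0.540 FPKM and Srebf1 at 5.83 ± 0.482 FPKM were lowest and did not overlap each other. With 4OI, Mylip at 28.4 ± 2.10 FPKM and Abca1 at 28.4 ± 1.85 FPKM had come to overlap, and Ch25h was last at 1.06 ± 0.364 FPKM. The ratio of Mylip to Abca1 was 0.2901, 0.224 and 0.254 in CM replicates 1, 2 and 3 and ran from 0.932 to 1.13 with 4OI. These ranges do not overlap, which follows from Mylip being higher and Abca1 lower in every 4OI library. The exact two-sided permutation test could therefore only give p = 0.1, the smallest that 3 against 3 allows. It adds nothing to the separate calls of these genes.

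Ch25h encodes cholesterol 25-hydroxylase, the enzyme that makes the oxysterol 25-hydroxycholesterol. It is a gene of a single exon (ENSMUSG00000050370, chromosome 19, 34473778 to 34475164, minus strand, mm10). It stood at 17.2, 9.75 and 7.88 FPKM in CM replicates 1, 2 and 3 and at 1.27, 1.27 and 0.640 FPKM in CM + 4OI replicates 1, 2 and 3. The lowest CM library was above the highest 4OI library, and the spread within each group was wide, with a coefficient of variation of 42.4% in CM and 34.3% with 4OI. Its log2 fold change was -2.56 (95% interval -3.23 to -1.90, limma adjusted p = 8.35e-04), and it was lower in 3 of 3 pairs of libraries with the same replicate number. With a pseudocount of 0.1 in place of 1 it was -3.31. From its length of 1387 nt and the estimated depths, these levels stand for about 517, 332 and 197 fragments in CM and 44.7, 38.6 and 20.95 fragments with 4OI. Of its exon 11.5% overlaps Gm26902 on the other strand, a noncoding gene with a mean of 0.0631 FPKM. No other member changed as much, and its interval lay below those of all the other 8.

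Cyp27a1, the mitochondrial enzyme that makes 27-hydroxycholesterol, was at 6.48 ± 0.719 FPKM in CM and 5.39 ± 0.641 FPKM with 4OI, and was not called (log2 fold change -0.23, 95% interval -0.47 to 0.01, limma adjusted p = 0.129). The ratio of Ch25h to Cyp27a1 was 1.09 to 2.68 in the CM libraries and 0.134 to 0.237 in the 4OI libraries, so Ch25h was above Cyp27a1 in all CM libraries and below it in all 4OI libraries.

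The window around the start of Ch25h, that of the exporter Abca1, which also fell, and that of Mylip, which rose, are shown as the genes with the largest changes whose sequence was at hand. They are RefSeq sequences of build GRCm38.p6, each from 250 bases before the start site to its last base before an exon of a protein-coding gene, 5′ to 3′ on the gene's strand. They are Ch25h at chr19:34475165-34475398 (minus strand), Abca1 at chr4:53159896-53160145 (minus strand) and Mylip at chr13:45389492-45389741 (plus strand). Capitals mark the motif matches described below.
Ch25h: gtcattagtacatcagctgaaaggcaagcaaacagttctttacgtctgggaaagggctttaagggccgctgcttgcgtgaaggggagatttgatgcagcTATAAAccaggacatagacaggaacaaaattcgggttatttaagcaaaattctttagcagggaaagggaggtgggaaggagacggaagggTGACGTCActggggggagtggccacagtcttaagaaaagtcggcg
Abca1: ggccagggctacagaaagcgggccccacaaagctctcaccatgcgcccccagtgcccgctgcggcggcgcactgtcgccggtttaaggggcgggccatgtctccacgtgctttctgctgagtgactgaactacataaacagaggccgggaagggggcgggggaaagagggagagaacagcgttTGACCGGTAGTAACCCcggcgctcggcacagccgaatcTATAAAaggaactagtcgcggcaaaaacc
Mylip: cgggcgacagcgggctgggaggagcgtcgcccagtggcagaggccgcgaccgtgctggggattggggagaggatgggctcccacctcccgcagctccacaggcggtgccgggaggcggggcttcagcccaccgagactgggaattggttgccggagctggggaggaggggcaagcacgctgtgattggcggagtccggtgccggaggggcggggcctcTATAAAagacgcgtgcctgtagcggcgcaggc
Windows of 300 bases, 250 before and 50 after a start site, were at hand for 8 of the 9 genes, 13 windows in all, and Abcg1 had none. On both strands they were searched for the LXR element DR4 (a direct repeat of AGGTCA with any 4 bases between), the NRF2 element TGACNNNGC, the interferon element (GAAA, any 2 bases, GAAA), the cAMP element TGACGTCA and the TATA box TATAAA. With up to 2 mismatches in its 12 fixed letters, DR4 was in none of the 13 windows and in 3.02% of all 32851 windows. With up to 3, a limit set after these windows had been seen, it was in 1 window of Abca1 and 1 of the 3 windows of Srebf1, and in 21.9% of all windows. The Abca1 match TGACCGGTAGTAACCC has its first base at -67 from the start site, and the Srebf1 match TGACCGCCAGTAACCC at -182 from a start site at position 60210471 of chromosome 11. The cAMP element has its first base at -61 from the start site of Ch25h and was in 1.79% of all windows. TATAAA was in 5 member windows and in 13.6% of all windows. The NRF2 and interferon elements were in none of the 13 windows, and in 12.4% and 3.44% of all windows. A match is a run of letters and does not show that a factor binds there, and the absence of one concerns this window alone.

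Nr1h3 encodes LXR alpha, the LXR form that macrophages and liver hold in quantity (ENSMUSG00000002108, chromosome 2, 91184061 to 91202834, minus strand). Its level was 12.8, 13.0 and 14.5 FPKM in CM replicates 1, 2 and 3 and 11.4, 9.93 and 11.9 FPKM with 4OI. The groups came close without overlapping, with a log2 fold change of -0.26 (95% interval -0.45 to -0.07, limma adjusted p = 0.0481), just inside the threshold. The call was lost without any 1 of the 6 libraries, with adjusted p = 0.0731, 0.0759 and 0.133 without CM replicate 1, 2 or 3 and 0.0826, 0.112 and 0.0519 without CM + 4OI replicate 1, 2 or 3. The range over 16 alternatives was 0.0227 to 0.139. Nr1h2, which encodes the broadly expressed LXR beta, was at 13.2 ± 1.24 FPKM and 13.4 ± 0.404 FPKM and was not called (log2 fold change 0.03, 95% interval -0.14 to 0.20). The Nr1h3 to Nr1h2 ratio ran from 0.916 to 1.11 in CM and from 0.738 to 0.915 with 4OI, and the exact permutation test gave p = 0.1, the smallest possible here.

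Abca1 passes cholesterol and phospholipid to lipid-poor apolipoproteins, and Abcg1 to formed lipoprotein particles. Abca1 (ENSMUSG00000015243, chromosome 4, 53030787 to 53159895, minus strand) stood at 55.2, 52.4 and 51.3 FPKM in CM replicates 1, 2 and 3 and at 30.5, 27.1 and 27.6 FPKM with 4OI. Abcg1 (ENSMUSG00000024030, chromosome 17, 31057675 to 31117988, plus strand) stood at 17.1, 16.5 and 19.8 FPKM in CM and at 9.19, 9.18 and 9.48 FPKM with 4OI. For both genes the groups lay far apart compared with the spread inside them. For Abca1 the log2 fold change was -0.88 (95% interval -1.02 to -0.74, limma adjusted p = 1.19e-04) and for Abcg1 -0.86 (-1.04 to -0.69, adjusted p = 2.80e-04). Both were called lower in all 16 alternatives, with log2 fold changes of -0.95 to -0.82 for Abca1 and -0.95 to -0.79 for Abcg1. The Abca1 to Abcg1 ratio was 3.23, 3.18 and 2.59 in CM and 3.32, 2.95 and 2.91 with 4OI, so its ranges overlapped (exact permutation p = 0.8). Neither gene shares exon bases with another annotated gene.

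Apoe encodes apolipoprotein E, which macrophages secrete and which takes up exported cholesterol (ENSMUSG00000002985, chromosome 7, 19696109 to 19699188, minus strand). Its level was 1657, 2102 and 1456 FPKM in CM replicates 1, 2 and 3 and 1899, 2315 and 2000.4 FPKM with 4OI. Replicate 2 was highest in both groups, and the groups overlapped through CM replicate 2. The log2 fold change of 0.26 (95% interval -0.08 to 0.61) was not called (limma adjusted p = 0.209). All 3 same-numbered pairs were higher with 4OI, by 0.20, 0.14 and 0.46 on the log2 scale. With the replicate number as a block it was called, at adjusted p = 0.0395, and likewise without CM replicate 2, at 0.0364 with a log2 fold change of 0.41, but without replicate 2 of both groups it was not, at 0.0613. Fibroblast markers, as given above, were also highest in replicate 2 of both groups. Where Abca1 and Apoe are set side by side, the Apoe to Abca1 ratio was 28.4 to 40.1 in CM and 62.3 to 85.6 with 4OI.

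**Figure D2:**
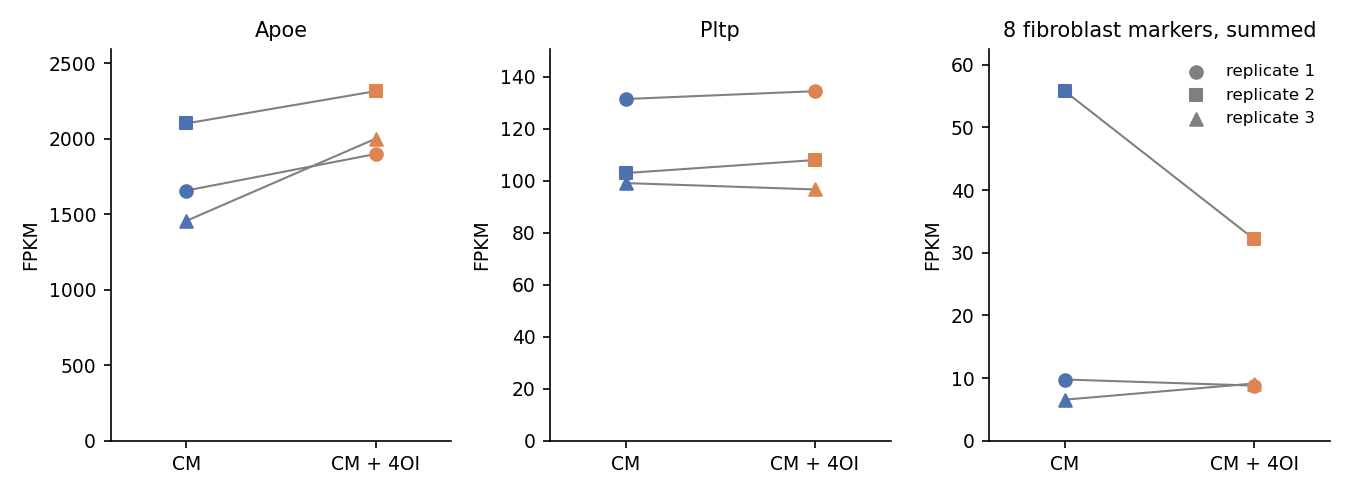
FPKM of Apoe, of Pltp and of 8 fibroblast markers summed, in CM and CM + 4OI, with a line joining libraries of the same replicate number. Each Apoe line rises and replicate 2 is highest at both ends, the Pltp lines stay nearly level at 131 to 134, 103 to 108 and 99.1 to 96.6 FPKM, and the fibroblast sum is highest in replicate 2 of both groups.

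Pltp encodes the phospholipid transfer protein, which remodels lipoprotein particles (ENSMUSG00000017754, chromosome 2, 164839518 to 164857711, minus strand). Its level was 131, 103 and 99.1 FPKM in CM replicates 1, 2 and 3 and 134, 108 and 96.6 FPKM with 4OI. Replicate 1 was highest in both groups, and the difference within a pair stayed between -0.04 and 0.07 on the log2 scale. The log2 fold change of 0.02 had a 95% interval of -0.34 to 0.39 and was not called (limma adjusted p = 0.932). With the replicate number as a block its standard error was 0.032, against 0.15 without, and Pltp was still not called (limma adjusted p = 0.631). Of its exon length 19.3% overlaps Ctsa, a lysosomal carboxypeptidase gene of the opposite strand, and Ctsa stood at 108 ± 3.91 FPKM in CM and 108 ± 2.75 FPKM with 4OI. The strand setting of the counting is not given in the sources used here, so reads of this stretch cannot be assigned.

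Lpcat3 encodes the acyltransferase that places polyunsaturated fatty acids into membrane phospholipids (ENSMUSG00000004270, chromosome 6, 124663027 to 124704418, plus strand). It rose from 8.72, 8.58 and 7.72 FPKM in CM replicates 1, 2 and 3 to 10.4, 10.1 and 10.7 FPKM with 4OI. The groups did not overlap, and the log2 fold change was 0.29 (95% interval 0.15 to 0.43, limma adjusted p = 0.0101). It kept its call in all 16 alternatives, the highest adjusted p being 0.0499 without replicate 2 of both groups. Over 10.2% of its exon length it overlaps Emg1 on the other strand, which was at 5.65 ± 0.277 and 5.96 ± 0.441 FPKM and was not called.

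Mylip encodes the ubiquitin ligase also called IDOL, which limits the uptake of lipoprotein (ENSMUSG00000038175, chromosome 13, 45389742 to 45412022, plus strand). It rose from 16.02, 11.7 and 13.0 FPKM in CM replicates 1, 2 and 3 to 28.4, 30.5 and 26.2 FPKM with 4OI. The lowest 4OI library was well above the highest CM library, and the log2 fold change was 1.02 (95% interval 0.74 to 1.29, limma adjusted p = 9.44e-04), and it was 0.87 to 1.13 over 16 alternatives, all of them called.

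Srebf1 encodes SREBP1, the transcription factor of fatty acid synthesis (ENSMUSG00000020538, chromosome 11, 60199089 to 60222581, minus strand). Its level was 6.06, 6.15 and 5.27 FPKM in CM replicates 1, 2 and 3 and 5.55, 5.68 and 5.87 FPKM with 4OI. All 4OI libraries lay inside the CM range, and the log2 fold change was -0.02 (95% interval -0.18 to 0.13, limma adjusted p = 0.805), so the interval leaves room for small changes in either direction. The table holds 1 value per gene, and the 12 annotated transcripts of Srebf1, which start at different sites, were not separated. Srebf2, which encodes the regulator of cholesterol synthesis SREBP2, was at 11.6 ± 2.10 and 11.2 ± 1.93 FPKM and was not called.

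**Figure D3:**
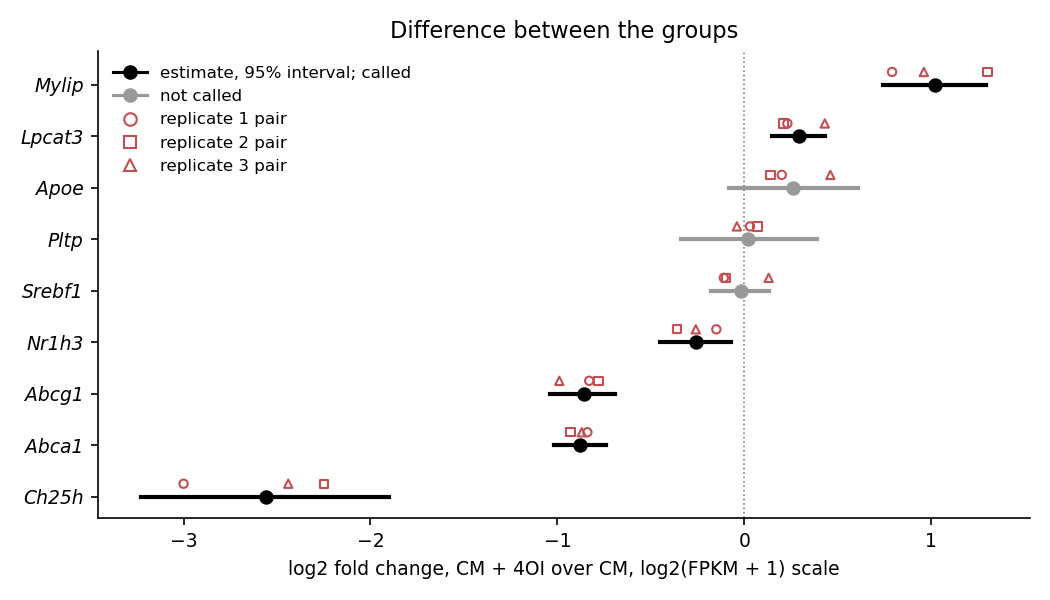
Log2 fold change of CM + 4OI over CM on the log2(FPKM + 1) scale for the 9 genes, with the 95% interval of the limma fit as a bar (black, called; grey, not called) and the 3 same-numbered pairs as open red symbols. Ch25h lies lowest at -2.56, Abca1 and Abcg1 lie together at -0.88 and -0.86, Mylip lies at 1.02, and the intervals of Apoe, Pltp and Srebf1 include 0.

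Around the 9 genes, 6 lists of the wider pathway were read, 93 genes in all, of which 77 reached the minimum for testing. Of these 77, 18 rose and 10 fell, with a median log2 fold change of 0.12, beside 19.3% higher, 13.2% lower and a median of 0.06 over all tested genes. The lists are small, so their counts are descriptions to be read beside these shares. Among LXR beta, the RXR partners and coregulators, 4 of 9 tested genes rose and 2 fell (19.3% and 13.2% over all genes). Rxra, a gene of the RXR partners, rose from 9.24 ± 0.412 to 12.1 ± 0.425 FPKM. The coactivator Ncoa1 fell from 8.67 ± 0.129 to 5.44 ± 0.457 FPKM, and its relative Ncoa3 from 18.7 ± 0.190 to 13.2 ± 0.468. In the limma test these 3 genes had adjusted p = 3.85e-04 to 0.00262. Ncoa2, a further relative of Ncoa1, went the other way, from 1.97 ± 0.179 to 2.59 ± 0.134 FPKM (limma adjusted p = 0.0273). The coactivator genes therefore did not move in 1 direction. Leaving out CM replicate 3, CM + 4OI replicate 2 or both libraries numbered 2 brought the number that rose to 2, as did median-of-ratios scaling and testing with no filter. The other RXR genes did not share the rise of Rxra. Rxrb was at 3.87 ± 0.509 FPKM in CM and 4.37 ± 0.958 FPKM with 4OI and was not called (limma adjusted p = 0.535). Rxrg reached at most 0.02 FPKM in a library and was not tested.

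Of the other genes linked to LXR, 3 of 14 tested were higher and 3 lower, where 19.3% and 13.2% of all genes were. Cd36, a scavenger receptor for oxidised lipoprotein, rose from 633 ± 70.5 to 1284 ± 91.97 FPKM. Mertk, a receptor for dead cells, fell from 23.3 ± 1.51 to 12.99 ± 0.972 FPKM, and Tgm2, tissue transglutaminase, from 875 ± 117 to 534 ± 70.8 FPKM. All 3 had limma adjusted p = 3.85e-04 to 0.00699. With the replicate block 5 genes of this list were lower, and without replicate 2 of both groups 2 were higher.

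In oxysterol handling 2 of 7 tested genes rose and 0 fell, against 19.3% and 13.2% over all genes, while the other 5 listed genes, Cyp46a1, Cyp7b1, Cyp11a1, Cyp39a1 and Sult2b1, were below the minimum. Hsd3b7, an enzyme of oxysterol breakdown to bile acids, rose from 8.07 ± 0.333 to 11.8 ± 0.614 FPKM. Osbp, an oxysterol-binding carrier of cholesterol between membranes, rose from 14.4 ± 0.432 to 19.1 ± 0.521 FPKM. Both had groups that did not overlap, with limma adjusted p = 9.46e-04 and 0.00102.

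Of the genes of cholesterol esterification, trafficking and uptake, 4 of 15 tested were higher and 4 lower, beside 19.3% and 13.2% of all genes. Lipa, the lysosomal lipase that frees cholesterol from its esters, rose from 201 ± 9.86 to 332 ± 11.0 FPKM. Plin2, the coat protein of lipid droplets, rose from 441 ± 23.5 to 695 ± 22.1 FPKM, and Scarb1, a receptor for HDL, from 4.83 ± 0.112 to 6.87 ± 0.344 FPKM. Msr1, a scavenger receptor, fell from 186 ± 10.2 to 121 ± 12.7 FPKM. Adjusted p in limma was 1.44e-04 to 0.00203 for the 4. Without replicate 2 of both groups 1 gene of this list was lower.

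Of 25 tested genes of the SREBP2 pathway and cholesterol synthesis 3 rose, 1 fell and 21 were not called, where 32.5% of all genes were called. The kinase Pmvk rose from 3.53 ± 0.335 to 4.29 ± 0.0798 FPKM and the isomerase Ebp from 10.1 ± 0.316 to 11.7 ± 0.524 FPKM, while the isomerase Idi1 fell from 8.22 ± 0.224 to 6.33 ± 0.943 FPKM. Those 3 calls had limma adjusted p = 0.0441, 0.0313 and 0.0362. With 1 library left out (CM 1 or 3, or CM + 4OI 2 or 3) 1 gene rose, and likewise with median-of-ratios, quantile or TPM scaling or no filter. Without replicate 2 of both groups 2 rose. The fall of Idi1 was lost when any 1 library but CM + 4OI replicate 2 was left out, and with no filter. Of 9 tested lipogenic genes of SREBP1, 2 rose and 0 fell, beside 19.3% and 13.2% of all genes. Acss2, which makes acetyl-CoA from acetate, was at 0.424 ± 0.0255 FPKM in CM and 2.28 ± 0.386 with 4OI, and reached the minimum for testing only through the 4OI libraries, so its call adds no support. Gpam, the first enzyme of glycerolipid synthesis, rose from 1.37 ± 0.217 to 1.99 ± 0.0634 FPKM (limma adjusted p = 0.0258). The count of genes that rose was 1 when CM replicate 3, any 4OI library or both libraries numbered 2 were left out, or with no filter. At a minimum mean of 5 FPKM neither gene was tested.

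**Figure D4:**
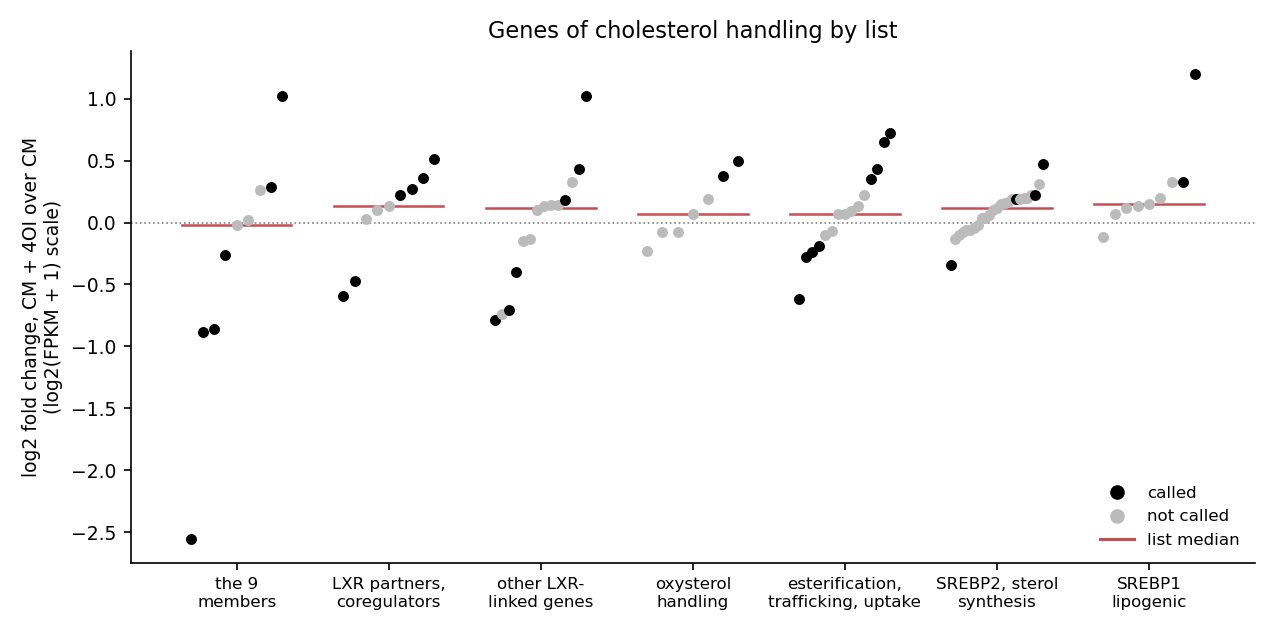
Log2 fold change of CM + 4OI over CM on the log2(FPKM + 1) scale for each tested gene, as 1 point, of the 9 genes and of the 6 lists (black, called; grey, not called), with a red line at the list's median. Ch25h at -2.56 lies below every gene of the lists, and Acss2 at 1.2 is the highest point.

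The genes most like each member over the 6 libraries were read from Pearson's r of log2(FPKM + 1), as a description. For members with large changes the difference between the groups dominates it. The nearest genes of Pltp and Srebf1 had log2 fold changes of -0.03 to 0.00, so there the likeness follows spread within the groups. For Abca1 the nearest were Cxcl10, Cmtm6 and Phf11d (r = 0.9997, 0.9992 and 0.9992), and 257 tested genes had r of at least 0.99. Pearson's r leaves out the size of a change. The log2 fold changes of these 3 genes were -4.65, -0.36 and -0.92, beside -0.88 for Abca1. For Abcg1 they were Plekhf2, Cd47 and Abcb1a (r = 0.9994, 0.9988 and 0.9987), with 50 such genes. For Ch25h they were Hk3, Ep400 and Secisbp2l (r = 0.9966, 0.9959 and 0.9946), with 26 such genes. For Mylip they were Hgs, Gpd1 and Zfp644 (r = 0.9969, 0.9966 and 0.9954), with 20 such genes. For Lpcat3 they were Cyb5d1, Stard9 and Tcf20 (r = 0.9966, 0.9957 and 0.9938), with 11 such genes. The other members had at most 1 gene at that likeness. Apoe was nearest to Taf5l, Bccip and Arfgap3 (r = 0.9916, 0.9899 and 0.9883), and Pltp to Aup1, Per1 and Gm11847 (r = 0.9883, 0.9835 and 0.9758). Nr1h3 was nearest to AC147029.1, Tor4a and Spsb4 (r = 0.9796, 0.9758 and 0.9695), and Srebf1 to Gm16580, Pign and Isca2 (r = 0.9867, 0.9798 and 0.9507).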

How the data were processed

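Per the labels' protocols, RNA of 6 macrophage cultures was sequenced as paired-end reads. The authors deposited FPKM values, 1 column per sample. FastQC 0.11.2 and build mm10 are named in the submitters' processing notes. Aligner, quantifier, gene models and strandedness were not given in the sources used here. Among 55335 gene IDs, 55154 (99.7%) occur in GENCODE M21 (GRCm38, the assembly of mm10), which gave coordinates and exon overlaps. Genes without a symbol, 3225 in the table, were tested like the others.

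Depth was estimated from the step of FPKM times length over genes with 1 transcript of at least 500 nt. The step was sought only between limits set beforehand, so a depth outside the matching range could not have come out. Only 29.4% to 32.1% of low values lay within 0.05 of a whole multiple of it, so counts were not recovered.

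CM + 4OI was compared with CM by limma 3.58.1 (R 4.3.3) applied to log2(FPKM + 1), with a trended variance prior and two-sided, over 10468 genes with a mean of at least 1 FPKM. P-values were Benjamini-Hochberg adjusted over them and called under 0.05. On simulated data of 10468 genes, 178 of 200 genes changed by a log2 fold of 1 were called. Python 3.11.15, pandas 2.3.3, numpy 2.4.6 and matplotlib 3.10.9 were used.

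The members and lists were chosen with earlier results of these data known, so counts over them are descriptions. Named genes were the 9 members, up to 4 called genes of each list with the largest absolute log2 fold change, Nr1h2, Cyp27a1, Srebf2 and the 3 genes most like each member. Some genes that this rule names are not reported here. Rxrb, Rxrg, Ncoa2, Ctsa, Emg1, the untested oxysterol genes and the markers in the closing section were named after their values were seen. Taken as deviations from their group's mean, same-numbered libraries correlated with r = 0.344, 0.427 and 0.185 for numbers 1, 2 and 3 over the tested genes. Between different numbers r was at most 0.0262. Such deviations cancel out within a group, so low r there partly follows from positive r for same numbers and is no separate evidence. The numbers were taken to pair the libraries in descriptions and in the replicate block alone. The main fit, its calls and the shares over all genes did not use the pairing. The labels give each number as a biological replicate. Whether a number stands for the same mouse or batch in both groups is not in the labels.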

Additional observations from a re-analysis of the deposited data

How the results depend on the processing

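Abca1, Abcg1, Ch25h, Mylip and Lpcat3 kept their direction and call in all 16 alternatives. These were pseudocounts of 0.1 and 0.5, no filter, a mean of at least 5 FPKM, no variance trend, 3 other scalings, the replicate block, each library left out in turn and replicate 2 of both groups left out. Nr1h3 lost its call in 9 of them, with adjusted p = 0.114 with no filter, 0.0553 with no variance trend and 0.139 without replicate 2 of both groups beside the single libraries given above. Apoe gained a call in 2. The replicate block changed no other call of the 9 genes. Srebf1 and Pltp were not called in any alternative, and their direction was not stable. Srebf1 was at 0.01 without replicate 2 of both groups and ranged from -0.08 to 0.01 with 1 library left out, including 0.000901 without CM replicate 1. Pltp was at -0.06 with median-of-ratios scaling, -0.01 with TPM scaling and -0.00158 without replicate 2 of both groups, and ranged from -0.11 to 0.15 with 1 library left out. Over all genes 2020 were higher and 1385 lower. With median-of-ratios scaling 1309 were higher and 1623 lower, so higher genes were 59.3% of the calls as deposited and 44.6% with that scaling. Without replicate 2 of both groups 1110 were higher, and with 1 library left out 1302 to 1868, the lowest without CM + 4OI replicate 2. The cause of these shifts was not tested. For Ch25h as few as 20.95 fragments were estimated in a 4OI library, against 197 or more in the CM libraries, and the estimate is approximate. The part of depth in its spread was not tested. With a minimum mean of 5 FPKM 0 genes of the SREBP1 list rose, since both called genes were then left out of the test.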

Other observations

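Marker genes of pancreatic acinar cells, the source of the conditioned medium, had low values in the macrophage libraries. Where this RNA came from was not tested. The 8 acinar markers summed to 10.8, 6.61 and 11.6 FPKM in CM replicates 1, 2 and 3 and to 13.9, 7.50 and 11.4 FPKM with 4OI, so replicate 2 was lowest in both groups. Ctrb1, a chymotrypsinogen, was at 3.75, 1.73 and 4.697 FPKM in CM and 4.52, 2.13 and 3.83 FPKM with 4OI. Amy2b, an amylase gene, was listed at 0 in all libraries. Cela1, an elastase, rose from 1.66 ± 0.0592 to 2.28 ± 0.266 FPKM (limma adjusted p = 0.0278), the only call among the 4 acinar markers tested. Cela2a, Ctrb1 and Try4 were not called, with log2 fold changes of 0.15, 0.06 and -0.01.

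Of the endothelial markers, Kdr, a receptor for VEGF, fell from 9.64 ± 1.71 to 2.69 ± 0.418 FPKM (log2 fold change -1.52, limma adjusted p = 3.57e-04), and Cdh5, a cadherin, from 3.46 ± 0.346 to 1.54 ± 0.689 FPKM (adjusted p = 0.0146). The list's other members, Pecam1, Tek and Egfl7, were not tested, and their means did not fall. Pecam1 was at 0.846 FPKM in CM and 0.871 FPKM with 4OI, Egfl7 at 0.102 and 0.180 FPKM and Tek at 0.00289 and 0.0215 FPKM. Tek and Egfl7 stayed under 1 FPKM in all libraries. Among the macrophage markers, the mannose receptor Mrc1 fell from 75.2 ± 8.86 to 50.8 ± 2.86 FPKM and the Fc receptor Fcgr1 from 541 ± 22.1 to 375 ± 31.9 FPKM, while Adgre1, Csf1r and Cd68 were not called.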
